A study of Xenopus laevis with 15 samples.

Results

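Xenobots collected immediately after exposure to embryo extract (extract 0 h) were compared with Xenobots collected before any stimulus (Ctrl). The comparison uses 6 of the 15 libraries of the series, chosen by their labels alone, with 3 libraries in each group. Xenobots are small self-moving tissues that heal from explanted embryonic ectoderm. All 6 libraries came from wild-type (WT) Xenopus laevis whose animal caps were cut out at stage 9 and kept in 0.75X MMR, an amphibian saline, for 7 days at 14 °C. The extract was made by homogenising 3 embryos of stage 8/9 in 100 µL of this saline, and 10 µL of it went into each 14 mL of medium. Ctrl received no extract. A group handled or given saline alone was not analysed here, so handling and extract cannot be told apart. Each library is a pool of 50 Xenobots. P-values therefore measure the spread between such pools, which may be partly technical. In the main fit and its blocked form this spread was estimated over all 15 libraries, 3 in each of 5 groups. The labels number the pools 1, 2 and 3 in each group, and the same numbers are called pairs here. The question is what the transcriptome showed at the moment of the stimulus, across all genes and gene families.

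Animal cap ectoderm left without inducing signals forms a mucociliary epidermis. This skin holds multiciliated cells, ionocytes, small secretory cells that release serotonin, and mucus-secreting goblet cells over a keratin-rich basal layer. Muscle, connective tissue, endothelium and the trunk Hox code belong to mesoderm and the body axis of the embryo, and are induced there by signals that isolated caps do not normally receive. Fast responses to a stimulus are usually read from immediate early genes, which are transcribed without new protein.

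The libraries held 12787799 to 17448954 expected counts at extract 0 h and 13597538 to 20325075 in Ctrl, of which ribosomal RNA took 21.9% to 38.2% and 26.4% to 36.9%. Levels are given as CPM (TMM-scaled counts, relative to library size), which are comparable between libraries but not between genes, since gene length is not taken into account. The labelled cell type, epidermal, was checked against markers. The 18 epidermal gene copies (among them krt12.4, krt8, krt18, epcam and cdh1) summed to 6661 to 7594 CPM at extract 0 h and 6951 to 7729 CPM in Ctrl. Of this, krt12.4.S alone held 3795 to 4358 CPM and 4020 to 4493 CPM. Markers of multiciliated cells summed to 697 to 814 CPM and 635 to 727 CPM in the same order, and those of ionocytes to 475 to 547 CPM and 487 to 541 CPM. Of the multiciliated sum, dnah9.S held 408 to 424 CPM and 351 to 404 CPM, while mcidas.L and mcidas.S were at most at 0.553 CPM. The goblet cell gene itln1.L was at 3693 to 4611 CPM at extract 0 h and 3614 to 5000 CPM in Ctrl. The other goblet cell marker, otogl.L, was at 0 to 0.119 CPM at extract 0 h and 0 CPM in Ctrl. Markers of small secretory cells summed to 17.3 to 19.9 CPM and 17.5 to 24.9 CPM. Among them tph1.L was at 1.36 to 2.46 CPM and 1.96 to 2.08 CPM, and slc18a2.L at 0 to 0.181 CPM and 0 to 0.0447 CPM. Markers of blood, notochord, leukocytes and the blastula embryo summed to at most 3.40 CPM in any of the 6 libraries. Markers of neurons summed to 67.0 to 78.3 CPM at extract 0 h and 70.4 to 77.4 CPM in Ctrl. Of this, syt1.L alone held 66.7 to 78.1 CPM and 70.0 to 77.3 CPM. Muscle markers were present too and are described below.

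No gene passed an adjusted p of 0.05 in edgeR's quasi-likelihood test, 0% of the 24052 genes tested. The smallest adjusted p was 0.861. At an unadjusted p under 0.05, 310 genes (1.29%) were higher and 779 (3.24%) lower at extract 0 h than in Ctrl, together 4.53% of the genes tested. The median log2 fold change over all genes was 0.01. The groups did not overlap in 958 genes (3.98%) that were higher and 891 (3.70%) that were lower at extract 0 h. The number of genes at this p moved with single libraries, and lower genes outnumbered higher ones whichever 1 library was left out. With Ctrl library 2 left out, 306 of 24479 genes were lower in place of 779. The lower genes numbered 804, 643 and 763 without extract library 1, 2 and 3, and 738 and 1088 without Ctrl library 1 and 3. Counts given below for gene lists with a library left out are to be read beside these. The 310 higher genes became 742 without extract library 1 and 775 without Ctrl library 3, and 174, 196 and 174 without extract library 2, extract library 3 and Ctrl library 2.

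**Figure D1:**
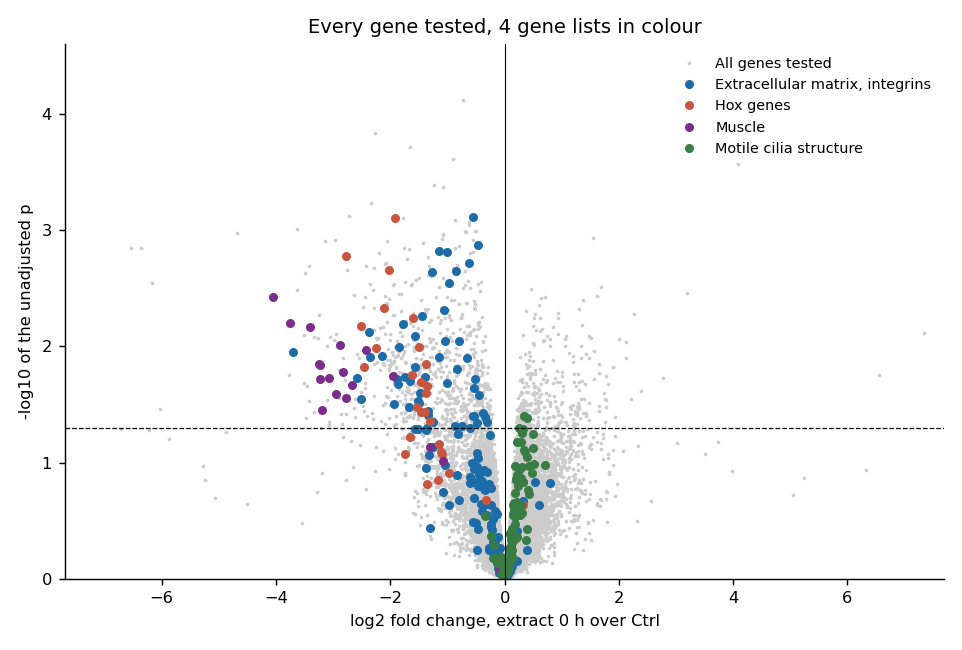
Log2 fold change (extract 0 h over Ctrl, x axis) against -log10 of edgeR's unadjusted p (y axis) for the 24052 genes tested, with 4 gene lists in colour and a dashed line at 0.05. Muscle, Hox and extracellular matrix genes spread to the left, with 18 of 18 muscle genes below 0, and motile cilia genes lie just right of 0.

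Same-numbered libraries deviated together from their group means (correlations across genes of 0.259, 0.186 and 0.290). The fit with the pair number as a block is therefore given beside these results. The block was fitted over all 15 libraries, while these correlations are of extract 0 h with Ctrl only. With that block, 5 genes passed the adjusted p of 0.05, which is 0.0208% of the genes tested, and all 5 fell at extract 0 h. At an unadjusted p under 0.05 the blocked fit had 459 genes (1.91%) higher and 1028 (4.27%) lower. The 5 genes are thbs2.L, cdh11.S, cd248.L, hoxc9.L and the gene listed as LOC108718763, which RefSeq annotates as protein coding without a name.

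The L copy of thbs2, which encodes thrombospondin 2, a secreted glycoprotein of the matrix around mesenchymal cells, had 1.11, 1.61 and 0.633 CPM in extract 0 h libraries 1, 2 and 3, against 4.52, 10.8 and 2.32 CPM in Ctrl. Every extract library was below every Ctrl library. The blocked log2 fold change was -2.31 (SE 0.335, adjusted p = 0.0465), and the fit without the block gave -2.38 (SE 0.749, adjusted p = 0.906). Its homeolog thbs2.S had 3.69, 5.49 and 4.07 CPM at extract 0 h and 8.97, 23.0 and 4.49 CPM in Ctrl, with overlap at Ctrl library 3 and a blocked adjusted p of 0.296.

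Cadherin-11, an adhesion molecule of neural crest and mesenchyme, was lower in both copies. The S copy, cdh11.S, had 0.553, 1.13 and 0.452 CPM at extract 0 h against 2.62, 6.40 and 1.12 CPM in Ctrl. It fell in the blocked fit by 2.17 on the log2 scale (SE 0.309, adjusted p = 0.0465), although extract library 2 and Ctrl library 3 touched at about the same level. The L copy, cdh11.L, had 1.29, 0.656 and 0.633 CPM against 3.01, 4.88 and 1.12 CPM, with a blocked adjusted p of 0.228.

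The gene cd248.L encodes endosialin, a surface protein of fibroblasts and pericytes in mammals. Its levels were 0.184, 0.537 and 0.181 CPM at extract 0 h against 1.57, 3.67 and 0.882 CPM in Ctrl, without overlap. The blocked log2 fold change was -2.70 (SE 0.399, adjusted p = 0.0465). LOC108718763 had 2.46, 2.86 and 1.18 CPM against 8.12, 18.2 and 3.37 CPM, again without overlap, and a blocked log2 fold change of -2.08 (SE 0.257, adjusted p = 0.0297).

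The posterior Hox gene hoxc9.L had 0.799, 0.716 and 0.271 CPM at extract 0 h against 2.95, 3.67 and 0.882 CPM in Ctrl. All 3 pairs differed in the same direction, and the blocked log2 fold change was -2.01 (SE 0.298, adjusted p = 0.0465). In all 5 genes Ctrl library 2 was the highest and Ctrl library 3 the lowest of the Ctrl group. Leaving out any 1 of the 6 libraries other than Ctrl library 3 ended the 5 calls: 0 genes passed without extract library 1, 2 or 3 or Ctrl library 1 or 2, and 154 passed without Ctrl library 3.

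**Figure D2:**
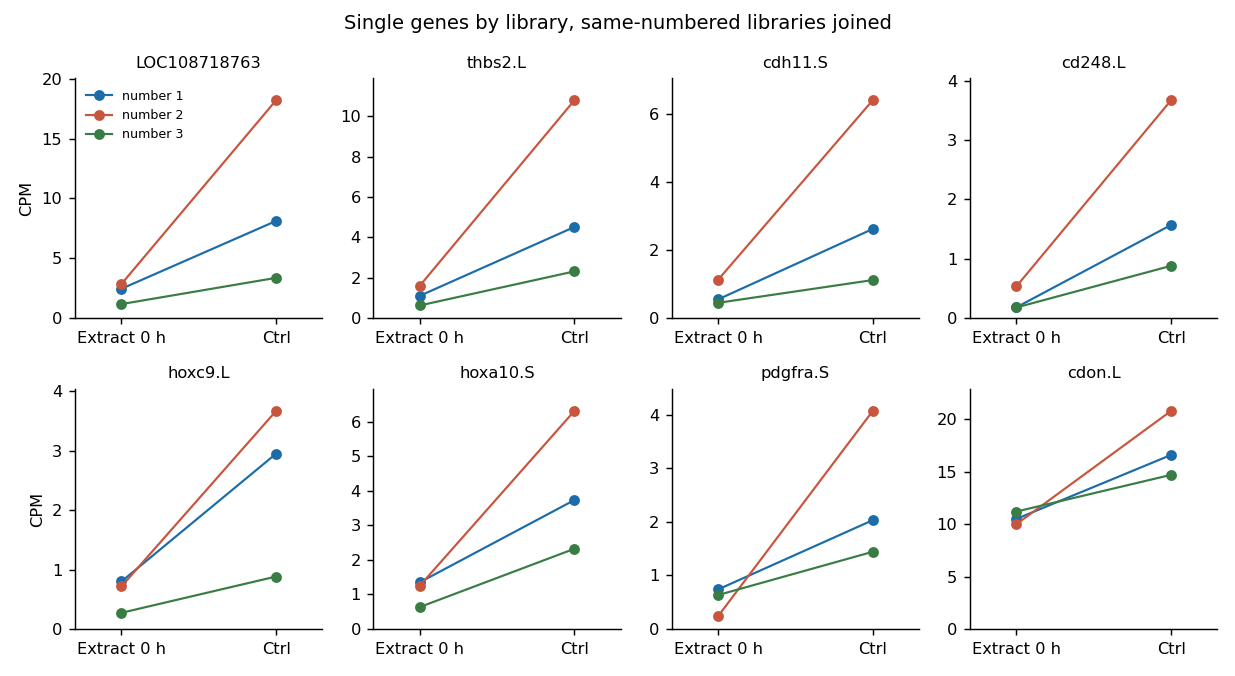
CPM (y axis, from 0) of 8 genes in the 3 extract 0 h libraries (left) and the 3 Ctrl libraries (right), with same-numbered libraries joined. Lines run upwards to Ctrl in all 8 genes, and the Ctrl libraries spread more widely than the extract libraries, as for thbs2.L at 2.32 to 10.8 CPM in Ctrl. The genes were taken from those called with the block or with the smallest p on the lower side, so their direction follows from that choice.

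Beyond these genes, the 10 smallest p among genes without overlap, with at least 1 CPM on average and with the same direction in all 3 pairs were examined on each side. On the lower side stood cdon.L, a cell surface co-receptor for Hedgehog ligands, with 10.5, 10.0 and 11.2 CPM at extract 0 h and 16.6, 20.8 and 14.7 CPM in Ctrl. Its log2 fold change was -0.72 (SE 0.135, adjusted p = 0.861), and its homeolog cdon.S had -0.34 (SE 0.110). The PDGF receptor gene pdgfra, expressed in mesoderm of the early frog embryo, was low in both copies. The S copy, pdgfra.S, had 0.738, 0.239 and 0.633 CPM against 2.03, 4.07 and 1.44 CPM, and pdgfra.L had 1.29, 1.13 and 1.18 CPM against 3.14, 6.71 and 2.00 CPM. Neither copy overlapped between the groups.

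The others on the lower side were wnt5a.S, hoxa10.S, tll1.L, col18a1.L, ssbp4.S, cd248.L, LOC108708614 and LOC108700827. The ligand gene wnt5a.S, which acts in cell movement and polarity, had 0.492, 0.358 and 0.362 CPM at extract 0 h against 1.90, 2.86 and 1.44 CPM in Ctrl (log2 fold change -2.34, SE 0.543). The protease gene tll1.L, a relative of tolloid, which cleaves the BMP antagonist chordin, had 2.58, 2.15 and 2.53 CPM against 4.65, 5.41 and 3.37 CPM (-0.90, SE 0.190). The basement membrane collagen gene col18a1.L had 49.4, 54.5 and 67.8 CPM against 79.5, 98.7 and 74.3 CPM (-0.56, SE 0.134). Their adjusted p was 0.861 or more without the block and 0.126 or more with it, except for cd248.L, given above, and for LOC108708614 and hoxa10.S (0.0966 and 0.0617 with the block).

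Muscle genes showed the lowest median of the lists. All lists were chosen with earlier results of these data known, so their counts are a description. Of 36 muscle gene copies in the table, 18 passed the filter on low counts, and all 18 had a negative log2 fold change, with a median of -2.91. Of these, 15 were lower and 0 higher at an unadjusted p under 0.05. The background is 3.24% lower among all genes. None passed the adjusted p, with or without the block. The groups did not overlap in 4 of the 18 (22.2%), all lower at extract 0 h, beside 3.70% of all genes. The filter can keep a copy through the libraries where it is high, so these counts and the median describe the kept copies only. The same limit holds for the counts and medians of the lists below. The authors' log2 values, corrected for surrogate variables, held 35 muscle copies. Their median was -1.15, with 31 negative and 4 positive.

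The L copy of actc1, the cardiac actin gene that marks early muscle in frog embryos, had 0.369, 1.43 and 1.99 CPM in extract 0 h libraries 1, 2 and 3 and 10.5, 24.2 and 2.88 CPM in Ctrl. The groups stayed apart, but Ctrl library 3 lay close to the extract libraries. The fast myosin heavy chain gene myh4.L had 0.984, 8.59 and 9.22 CPM at extract 0 h against 53.9, 107 and 5.93 CPM in Ctrl, so that Ctrl library 3 fell within the extract range. The troponin gene tnnc1.S had 0.123, 0.358 and 0.271 CPM against 4.58, 7.20 and 0.641 CPM (log2 fold change -4.05, SE 1.14, adjusted p = 0.906). Muscle genes listed under calcium and channel genes had the same direction. The calcium pump gene of the muscle reticulum, atp2a1.L, gave 0.246, 1.61 and 1.45 CPM against 13.1, 20.9 and 2.24 CPM. The calcium channel genes ryr1.L and cacna1s.S had log2 fold changes of -1.58 (SE 0.685) and -1.50 (SE 0.511).

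Summed over the muscle list, the level was 15.5, 39.1 and 46.6 CPM at extract 0 h and 154, 310 and 39.7 CPM in Ctrl. Pairs 1 and 2 were lower at extract 0 h and pair 3 was not. The 7 muscle marker copies of the cell type check summed to 5.66, 13.8 and 12.6 CPM at extract 0 h and 48.4, 110 and 14.4 CPM in Ctrl. The other 9 libraries of the series held 19.4 to 364 CPM, a range that contains all Ctrl values and 2 of the 3 extract values. In bulk libraries, fewer cells of a type and less RNA per cell cannot be told apart. Without Ctrl library 2, 3 of 19 muscle genes were lower at an unadjusted p under 0.05, beside 306 of all 24479 genes. The muscle median was then -1.82. Without extract library 1, 5 were lower, beside 804 of all 24548 genes.

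Hox genes, which give cells their position along the body axis, were mostly low at extract 0 h. Of 56 measured copies, 32 were tested, and 28 of these had a negative log2 fold change, with a median of -1.38. At an unadjusted p under 0.05, 18 (56.2%) were lower and 0 higher, beside 3.24% and 1.29% of all genes. With the block 22 were lower, beside 4.27% of all genes, and of these 22 hoxc9.L passed the adjusted p. The groups did not overlap in 11 (34.4%), all lower at extract 0 h, beside 3.70% of all genes. The median was -0.91 and 7 were lower, beside 306 of all 24479 genes, when Ctrl library 2 was left out. The authors' corrected log2 values held 52 Hox copies with a median of -0.75, of which 46 were negative and 6 positive.

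The Hox genes differed by their number, which follows their order in the clusters. All 16 tested copies with numbers 9 to 13, the posterior group, were negative, with log2 fold changes of -2.77 to -1.31 and a median of -1.62, and 13 had an unadjusted p under 0.05. All 8 with numbers 4 to 8 were negative too, with a median of -1.16, and 3 had such a p. Among the 8 with numbers 1 to 3 the median was -0.02, and 4 were negative. This grouping was made after the values were seen, and the difference between the groups was not tested.

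Within the posterior group, hoxc10.L had 0.184, 0.239 and 0.362 CPM at extract 0 h and 1.31, 3.27 and 0.561 CPM in Ctrl (log2 fold change -2.77, SE 0.726, blocked adjusted p = 0.160). The gene hoxa10.S had 1.35, 1.25 and 0.633 CPM against 3.73, 6.31 and 2.32 CPM (-1.91, SE 0.457, blocked adjusted p = 0.0617). Both showed no overlap. From the central group, hoxc6.L had 2.09, 3.04 and 2.98 CPM against 6.94, 11 and 3.93 CPM (-1.46, SE 0.623). The low anterior genes were copies of hoxd3: hoxd3.L had 0.184, 0.0597 and 0 CPM at extract 0 h against 0.720, 0.582 and 0.321 CPM in Ctrl. The hoxa2 and hoxa3 copies had log2 fold changes between -0.04 and 0.32.

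**Figure D3:**
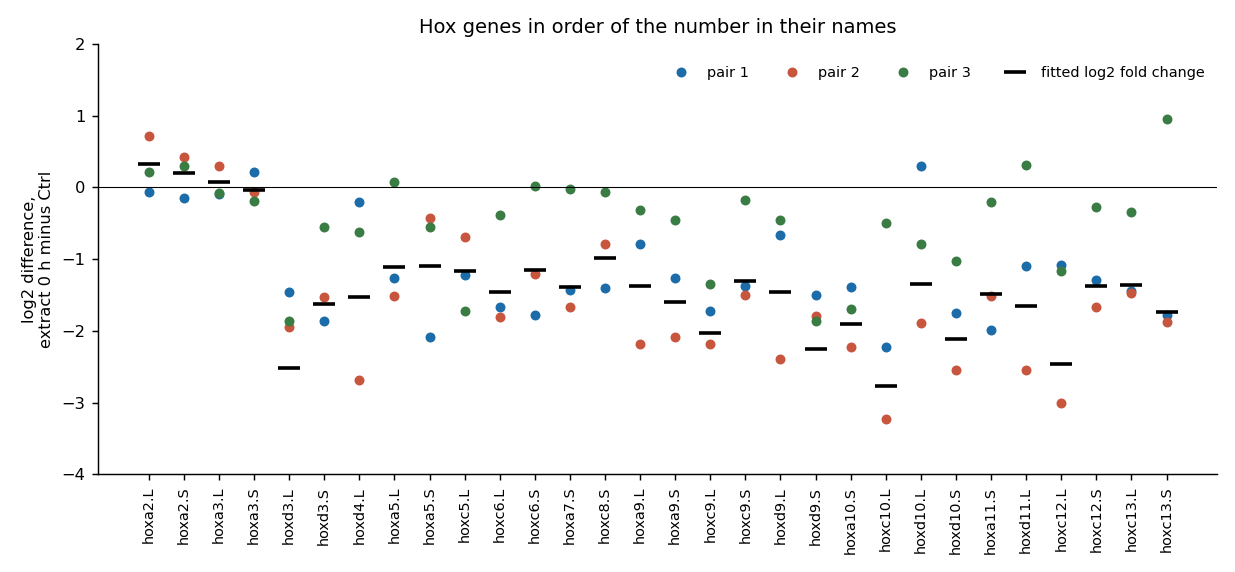
Log2 difference in CPM, extract 0 h minus Ctrl, in each of the 3 pairs (points) and the fitted log2 fold change (bars) for tested Hox genes with numbers 2 to 13, in order of their number. The first 4 genes, copies of hoxa2 and hoxa3, lie around 0, the fitted values of the others lie between -2.77 and -0.98, and pair 3 is often the nearest to 0.

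In the list of extracellular matrix proteins and integrins, many genes were low at extract 0 h. Of its 201 measured copies 158 passed the filter, and 136 of these had negative log2 fold changes (median -0.41). The authors' corrected log2 values held 185 copies with a median of -0.35, of which 153 were negative and 32 positive. At an unadjusted p under 0.05, 50 (31.6%) were lower and 0 higher, beside 3.24% and 1.29% of all genes. With the block 68 were lower, beside 4.27% of all genes, and thbs2.L alone of the list passed the adjusted p. The laminin chain gene lamc1.L had 29.8, 31.7 and 34.6 CPM at extract 0 h and 42.1, 53.2 and 36.9 CPM in Ctrl (-0.46, SE 0.119), without overlap. The cartilage collagen gene col2a1 was low in both copies. Its L copy, col2a1.L, had 21.9, 30.1 and 27.2 CPM against 51.6, 100 and 38.0 CPM (-1.27, SE 0.336, blocked adjusted p = 0.0688).

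The hemidesmosome integrin itgb4.L, which anchors basal skin cells, had 42.4, 53.0 and 49.0 CPM at extract 0 h and 67.6, 132 and 60.1 CPM in Ctrl (-0.85, SE 0.230). The tendon and muscle-junction thrombospondin gene thbs4.L had 3.32, 5.13 and 2.26 CPM against 14.7, 45.4 and 4.41 CPM (-2.58, SE 0.943). Tenascin-C, tnc.L, had 34.7, 49.3 and 29.2 CPM against 83.9, 250 and 43.2 CPM (-1.74, SE 0.634). In each of these genes Ctrl library 2 was the highest of the 6. The main fibrillar collagen gene col1a1.L had 222, 458 and 531 CPM against 496, 688 and 589 CPM (-0.55, SE 0.245), with the lowest value in extract library 1. The list's sum was 7747, 9793 and 12835 CPM at extract 0 h and 11802, 14268 and 12037 CPM in Ctrl, which overlap. Without Ctrl library 2, 12 of 160 matrix genes were lower at an unadjusted p under 0.05, beside 306 of all 24479 genes. Without extract library 1, 21 were, beside 804 of all 24548 genes.

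After these values were seen, a list of genes of mesenchyme and connective tissue and a list of endothelial genes were assembled, so their counts are a description too. Of 117 measured mesenchymal copies 67 passed the filter, which can keep a copy through the libraries where it is high. Of these 67, 63 were negative (median -1.05). The authors' corrected log2 values held 104 copies with a median of -0.44, of which 86 were negative and 18 positive. At an unadjusted p under 0.05, 32 (47.8%) were lower and 0 higher, beside 3.24% and 1.29% of all genes. The list shares 19 genes with the matrix list, 28.4% of its own and 12% of the matrix list's members. The intermediate filament gene vim.S, a marker of mesenchyme, had 0.984, 1.25 and 1.45 CPM at extract 0 h and 4.91, 8.95 and 1.52 CPM in Ctrl (-2.10, SE 0.603). The transcription factor gene twist1.S, of head mesenchyme and neural crest, had 2.03, 1.31 and 0.633 CPM against 5.56, 8.28 and 1.28 CPM (-1.91, SE 0.705). The fibulin gene fbln1.L had 1.84, 2.69 and 1.63 CPM against 6.54, 15.3 and 2.56 CPM (-2.0, SE 0.647, blocked adjusted p = 0.0607). Without Ctrl library 2, 6 mesenchymal genes were lower at that p, beside 306 of all 24479 genes. Without extract library 1, 20 were, beside 804 of all 24548 genes.

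Of 34 measured endothelial copies 31 passed the filter, and 30 of these were negative (median -1.13). The authors' corrected log2 values held 33 copies with a median of -0.51, of which 32 were negative and 1 positive. At an unadjusted p under 0.05, 8 (25.8%) were lower and 0 higher, beside 3.24% and 1.29% of all genes. With the block 14 were lower, beside 4.27% of all genes. The VE-cadherin gene cdh5.L, which joins endothelial cells, averaged 1.62 ± 0.662 CPM at extract 0 h and 8.50 ± 5.47 CPM in Ctrl (SD, n = 3 each). The groups were barely apart, with extract library 1 at 2.21 CPM and Ctrl library 3 at 2.24 CPM. The blocked log2 fold change was -2.35 (SE 0.401, adjusted p = 0.0966). The scavenger receptor gene stab2.L, of sinusoidal endothelium in mammals, had 7.93, 8.18 and 7.69 CPM against 29.1, 38.7 and 7.37 CPM (-1.67, SE 0.724). Here Ctrl library 3 was below all extract libraries. The same held for the von Willebrand factor gene vwf.L, at 9.35, 8.77 and 9.22 CPM against 21.4, 39 and 7.69 CPM. Without Ctrl library 3, 18 endothelial genes were lower, beside 1088 of all 24711 genes. Without any 1 of the other 5 libraries, 2 to 4 were, beside 306 to 804 of all genes.

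**Figure D4:**
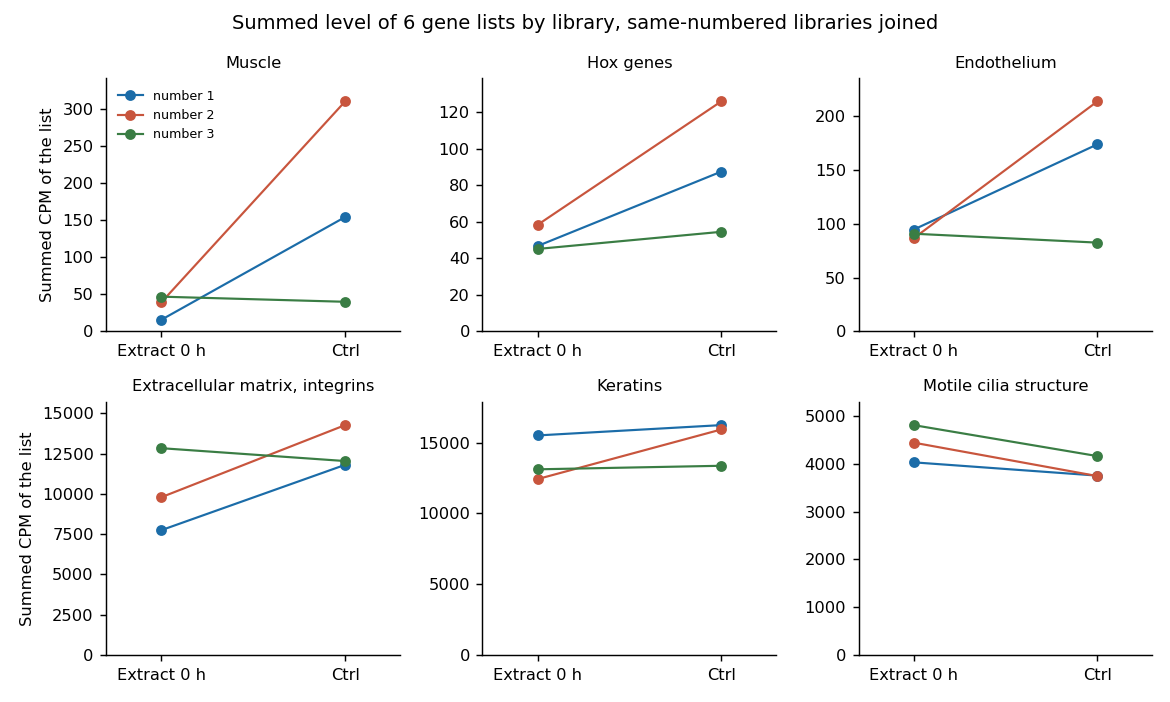
Summed CPM (y axis, from 0) of 6 gene lists in the 3 extract 0 h libraries (left) and the 3 Ctrl libraries (right), with same-numbered libraries joined. Muscle, Hox and endothelial sums are higher in Ctrl libraries 1 and 2 than in any extract library, Ctrl library 3 lies near the extract libraries, and motile cilia sums are higher at extract 0 h in all 3 pairs.

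The Ctrl libraries were unequal in most of the lower genes. Among the 779 genes lower at an unadjusted p under 0.05, 541 (69.4%) had their Ctrl values in the order library 2, library 1, library 3 from high to low, against 22.1% of all genes tested. The order held for 17 of 18 muscle genes, 20 of 32 Hox genes, 43 of 67 mesenchymal genes, 21 of 31 endothelial genes and 78 of 158 matrix genes. It held for 21 of 86 BMP and TGF-beta genes (24.4%) and 25 of 91 Wnt genes (27.5%). The order was also frequent in some lists with 0 genes lower at that p. These were ribosomal protein (113 of 135, 83.7%), oxidative phosphorylation (94 of 134, 70.1%) and proteasome genes (53 of 80, 66.2%). Of the 291 genes in any of the muscle, Hox, matrix, mesenchyme and 2 endothelial or blood lists, 118 (40.5%) were among the lower genes, beside 3.24% of all genes. They made up 15.1% of the lower genes, and 0 of the 291 were among the higher ones. These lists were joined because they were low, so the shares follow from that choice and are a description only. The part of library composition in the lower genes was not tested.

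In the BMP and TGF-beta list 14 of 86 tested genes (16.3%) were lower and 0 higher at an unadjusted p under 0.05. The shares of all genes were 3.24% and 1.29%, and the median of the list was -0.09. The secreted follistatin relative fstl1.L had 14.5, 11.9 and 14.9 CPM at extract 0 h and 21.3, 31.9 and 17.5 CPM in Ctrl (-0.79, SE 0.201), without overlap. The ligand gene tgfb1.S had 1.48, 1.85 and 2.17 CPM against 3.34, 7.25 and 2.08 CPM (-1.25, SE 0.414). The BMP antagonist gene grem1.L had 3.69, 3.34 and 2.53 CPM against 7.13, 20.7 and 3.05 CPM (-1.71, SE 0.716). With Ctrl library 2 left out, 4 genes of this list were lower, beside 306 of all 24479 genes.

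In the Wnt list 10 of 91 tested genes (11%) were lower and 1 higher at an unadjusted p under 0.05, and the median was -0.02. Beside wnt5a.S these included its receptor ror2.S (-1.32, SE 0.484), the Wnt amplifier rspo2.L (-1.64, SE 0.597), the secreted antagonist sfrp2.L (-1.25, SE 0.451) and the planar polarity gene prickle1.L (-0.97, SE 0.322). Levels of prickle1.L were 1.97, 2.63 and 2.98 CPM at extract 0 h and 4.25, 6.98 and 3.29 CPM in Ctrl. Without Ctrl library 2, 2 genes of the list were lower, and without extract library 2, 6 were, beside 306 and 643 of all genes. In the Notch list 4 of 47 (8.51%) were lower and 1 (2.13%) higher, beside 3.24% and 1.29% of all genes. The 4 became 0 without Ctrl library 2 and 2 without extract library 2, beside the same 306 and 643 of all genes. The Notch target gene hey1.L was at 1.11, 1.37 and 1.18 CPM against 3.14, 4.16 and 1.36 CPM. In the innate immune list 2 of 80 tested genes (2.50%) were lower and 1 (1.25%) higher, near the shares of all genes, and the median was -0.02. Its chemokine gene cxcl12.L had 4.49, 3.40 and 2.08 CPM against 10.5, 21.6 and 4.73 CPM (-1.88, SE 0.607), without overlap.

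Motile cilia genes leaned to the higher side. Of 114 tested genes for axonemal dyneins, radial spokes, central pair and docking proteins, 100 had a positive log2 fold change, with a median of 0.14 and quartiles of 0.06 and 0.23. Only 2 were higher and 0 lower at an unadjusted p under 0.05, beside 1.29% and 3.24% of all genes. With the block 8 were higher, beside 1.91% of all genes. None passed the adjusted p. The groups did not overlap in 12 (10.5%), all higher at extract 0 h, beside 3.98% of all genes. In all 3 pairs 52 of the 114 were higher, beside 15.3% of all genes. The count of 2 became 17 without extract library 1 and 11 without Ctrl library 3, and 0 without Ctrl library 1 and 1 without each of the others. Over all genes the higher count also rose, from 310 to 742 without extract library 1 and to 775 without Ctrl library 3. With surrogate variables in the fit 31 were higher, beside 1104 of all 24052 genes. With the authors' adjusted log2 values 36 were higher, of which 1 passed the adjusted p, beside 2295 higher of all 28009 genes. Both backgrounds are above the 310 genes of the main fit. The test on the authors' values did not allow for the correction already made in them, so its p-values can be too small.

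The summed level of the cilia list was 4035, 4448 and 4815 CPM at extract 0 h and 3757, 3747 and 4166 CPM in Ctrl. Each pair was higher at extract 0 h, and extract library 1 lay below Ctrl library 3. The other 9 libraries ranged from 3913 to 4768 CPM. The gene drc1.L, of the complex that regulates ciliary dyneins, had 7.87, 8.29 and 11.2 CPM at extract 0 h and 6.35, 6.62 and 7.69 CPM in Ctrl (0.40, SE 0.180). The central pair gene hydin.S had 218, 226 and 231 CPM against 197, 181 and 200 CPM (0.22, SE 0.112), and ak7.S, an adenylate kinase of cilia, had 55.8, 59.8 and 66.5 CPM against 48.1, 51.4 and 49.9 CPM (0.28, SE 0.144). All 3 genes were without overlap. Among 35 tested regulators of multiciliated cell fate the median was 0.07. At an unadjusted p under 0.05, beside 1.29% and 3.24% of all genes, 2 (5.71%) were higher and 0 lower. These were myb.L, a transcription factor gene of differentiating multiciliated cells, at 21.7, 25.4 and 25.9 CPM against 20.2, 17.7 and 19.9 CPM, and cep152.L, a centriole duplication gene, at 7.63, 11.6 and 14.7 CPM against 7.33, 6.17 and 9.62 CPM. The count of regulators became 0 without extract library 2 or 3 or Ctrl library 2, 1 without Ctrl library 1 and 3 without either of the others.

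Among the 10 genes of smallest p on the higher side, the Krüppel-like factor gene klf15.S had 53.6, 66.7 and 64.9 CPM at extract 0 h and 49.6, 37.7 and 46.7 CPM in Ctrl (0.47, SE 0.134), and klf15.L had 0.25 (SE 0.183). The gene cdkn2c.L, an inhibitor of cyclin-dependent kinases, had 1.29, 1.73 and 1.63 CPM against 0.720, 0.626 and 0.401 CPM (1.38, SE 0.407), while cdkn2c.S had 0.11 (SE 0.340). The RNA helicase gene ddx49.L had 0.71 (SE 0.207) and its homeolog ddx49.S had -0.10 (SE 0.180). Further genes were otud7a.L (0.63), vwa3a.L (0.38), znf248.L (0.54), tbc1d24.1.L (0.62), LOC108699331 (1.54) and LOC121393757 (0.93), as log2 fold changes. Their adjusted p was 0.861 or more without the block and 0.188 or more with it.

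Among epidermal gene families, the keratin list had 31 tested genes with a median of -0.21, and 3 (9.68%) were lower and 0 higher at an unadjusted p under 0.05, beside 3.24% and 1.29% of all genes. With the block 8 were lower, beside 4.27% of all genes. The 3 became 0 without Ctrl library 2, 1 without extract library 1, 5 without extract library 3 and 6 without Ctrl library 1 or 3. Over all genes the 779 lower became 306, 804, 763, 738 and 1088 without these libraries, in the same order. The clearest was krt12.2.S, at 37.6, 36.8 and 34.5 CPM at extract 0 h and 79.5, 235 and 43.5 CPM in Ctrl (-1.72, SE 0.596), with Ctrl library 2 far above the rest. Keratin sums of 12431 to 15519 CPM at extract 0 h and 13374 to 16249 CPM in Ctrl overlapped. The ionocyte and proton pump list and the list of secretory cell genes each had a median of -0.03, and none of their genes passed the adjusted p. The mucin gene muc1.S was at 31.2, 35.0 and 43.5 CPM against 25.7, 23.3 and 28 CPM (0.51, SE 0.159). The mucin-like gene muc2l.L had 1.17, 1.07 and 1.09 CPM at extract 0 h and 5.04, 6.31 and 88.6 CPM in Ctrl, so that Ctrl library 3 set the Ctrl mean (-4.87, SE 2.26, unadjusted p = 0.0543). Of 90 cell junction genes 0 were higher and 5 (5.56%) lower at an unadjusted p under 0.05, beside 1.29% and 3.24% of all genes. Without Ctrl library 3, 9 were lower, beside 1088 of all 24711 genes. The 5 lower ones included the endothelial claudin gene cldn5.L and the cadherin genes named above.

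No immediate early gene passed the adjusted p, with or without the block. Of 99 tested, 4 were higher and 3 lower at an unadjusted p under 0.05, 4.04% and 3.03%, beside 1.29% and 3.24% of all genes. With the block 8 were higher and 5 lower, beside 1.91% and 4.27% of all genes. Surrogate variables gave 11 higher and 6 lower, beside 1104 and 1139 of all 24052 genes. The log2 fold changes of the 99 genes had a median of 0.02 (-0.02 without extract library 1 and -0.04 without Ctrl library 2) and quartiles of -0.12 and 0.14. The orphan nuclear receptor gene nr4a2.S had 1.11, 1.49 and 1.99 CPM at extract 0 h and 0.785, 0.537 and 0.882 CPM in Ctrl (1.06, SE 0.353, unadjusted p = 0.00867, adjusted p = 0.906). All 3 extract libraries were above all Ctrl libraries. The AP-1 gene fos.S had 4.98, 5.13 and 4.25 CPM against 4.19, 3.36 and 2.64 CPM, without overlap (0.49, SE 0.261, unadjusted p = 0.0779). The kinase gene plk3.S had 127, 149 and 126 CPM against 112, 109 and 120 CPM (0.24, SE 0.108). On the lower side, the growth arrest gene gadd45g.S had 3.44, 3.46 and 4.07 CPM against 4.65, 5.37 and 5.21 CPM (-0.48, SE 0.172). The summed level of the list was 2704 to 2869 CPM at extract 0 h and 2554 to 2805 CPM in Ctrl. The 4 higher genes became 1 without extract library 2 or Ctrl library 2 and 6 without Ctrl library 3, and the 3 lower ones became 6 and 1 without extract library 1 and Ctrl library 2.

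None of the 111 heat shock genes or the 58 genes of endoplasmic reticulum and integrated stress passed the adjusted p, with or without the block. Their medians were -0.04 and -0.11. Of the 58, 43 were negative. The groups did not overlap in 7 (12.1%) that were lower and 1 (1.72%) that was higher, beside 3.70% and 3.98% of all genes. At an unadjusted p under 0.05, 2 (3.45%) were higher and 0 lower, beside 1.29% and 3.24% of all genes. The stress-induced mTOR inhibitor gene ddit4.L had 43.2, 41.1 and 33.2 CPM at extract 0 h and 32.9, 31.8 and 23.6 CPM in Ctrl, higher by 0.37 to 0.49 on the log2 scale in each pair (0.41, SE 0.161). Oxidative stress and hypoxia lists had medians of -0.04 and -0.03. In the calcium list 2 of 90 genes (2.22%) were higher and 7 (7.78%) lower at an unadjusted p under 0.05, beside 1.29% and 3.24% of all genes, and the lower ones included muscle genes such as atp2a1.L. The 7 lower became 2 without Ctrl library 2, and the 2 higher became 0 without extract library 2 and 1 without Ctrl library 1 or 2. The irritant-sensing channel gene trpa1.L had 9.10, 10.9 and 9.95 CPM against 7.26, 7.56 and 7.21 CPM (0.44, SE 0.166), and the phospholipase gene plcd1.L had 11.7, 13 and 12.1 CPM against 16.1, 16.6 and 16.1 CPM (-0.40, SE 0.126). Both groups were tight and apart, yet neither gene passed the adjusted p. Purinergic genes had a median of -0.09, and none passed the adjusted p.

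Because the stimulus was itself made of embryos, transcripts of the blastula were listed as well. Of 87 gene copies of maternal and blastula genes, 27 passed the filter, with a median of -0.01. At an unadjusted p under 0.05, 0 were higher and 1 (3.70%) lower, beside 1.29% and 3.24% of all genes. The markers of blastula embryos named for the cell type check summed to 3.2, 2.03 and 2.44 CPM at extract 0 h and 3.40, 1.97 and 2.80 CPM in Ctrl. The ranges of the groups overlapped, and no measure of how much embryo RNA the extract would bring was made.

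Among housekeeping families, of 135 ribosomal protein genes tested 110 were negative, with a median of -0.09, and 0 were higher or lower at an unadjusted p under 0.05. Their sum was 19696, 18010 and 18587 CPM at extract 0 h and 20083, 23318 and 16987 CPM in Ctrl, which overlap, and 113 of the 135 had the Ctrl order library 2, library 1, library 3. Oxidative phosphorylation genes (median -0.08, 102 of 134 negative), proteasome genes (-0.08, 61 of 80 negative) and mitochondrial ribosomal protein genes (-0.08, 72 of 94 negative) had 0 genes past the unadjusted p in either direction. These medians are not stable in sign: without Ctrl library 2 they were 0.02 for ribosomal proteins, 0.03 for oxidative phosphorylation and 0.02 for the proteasome, and with surrogate variables 0.15, 0.15 and 0.05, with 0.07 for mitochondrial ribosomal proteins. Chromatin modifiers (182 tested) and splicing factors (100 tested) had medians of 0.04 and 0.02, which became -0.02 with surrogate variables and -0.01 with homeologs summed.

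**Figure D5:**
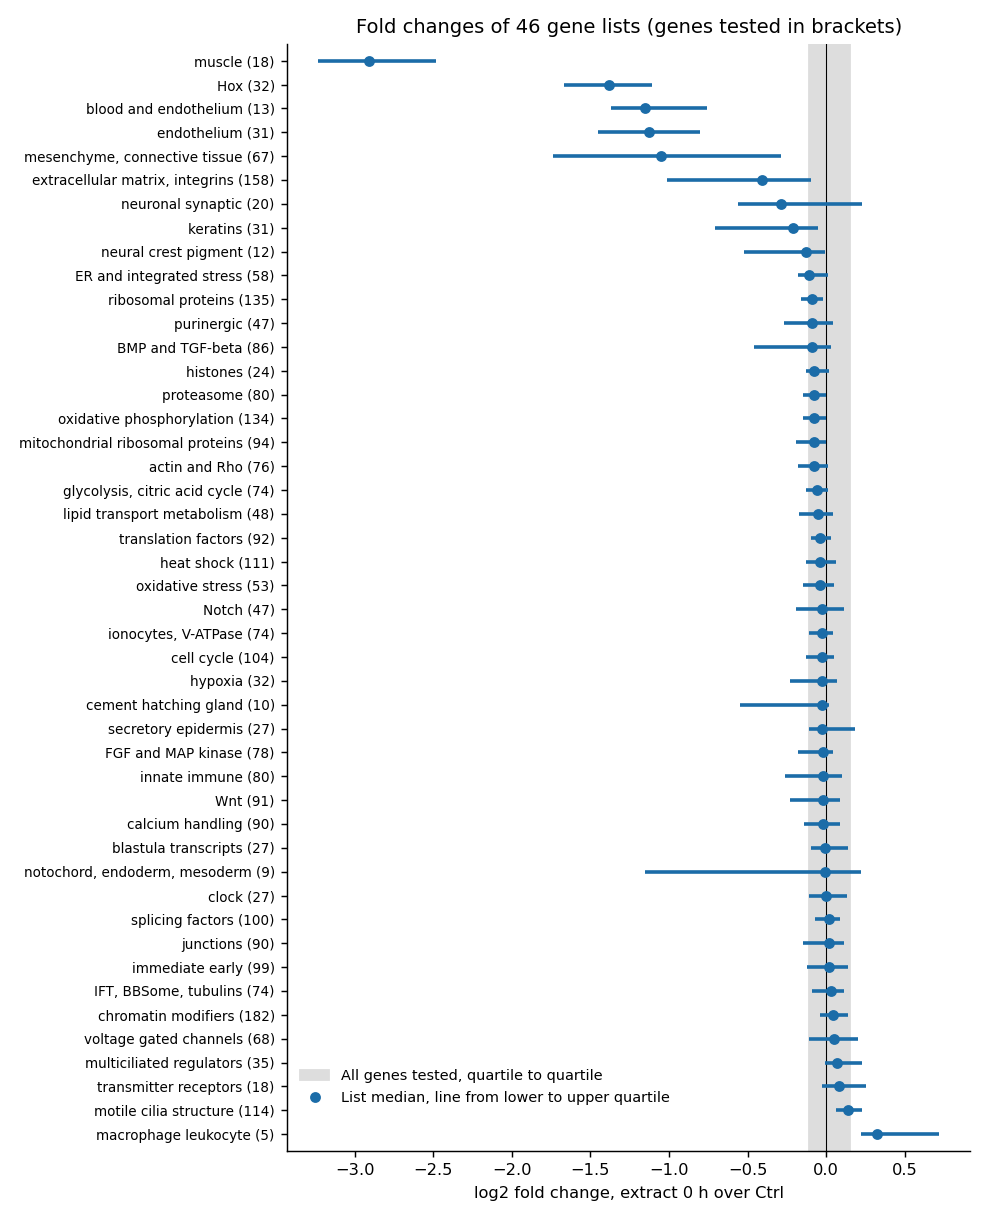
Median log2 fold change (extract 0 h over Ctrl) of 46 gene lists, with lines from the lower to the upper quartile and the same span over all genes tested in grey. Muscle (-2.91), Hox (-1.38), endothelial and mesenchymal lists lie left of the grey span, and most other medians lie within it.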

How the data were processed

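RNA of pooled Xenobots was sequenced in 15 libraries, 3 in each of 5 groups. The authors deposited expected counts per gene, of which 69.1% of the values were whole, and log2 CPM values corrected for surrogate variables. The submitters' processing notes name fastp, STAR, RSEM and limma; the genome build is not given in the sources used here. Expected counts were rounded, scaled by TMM and tested with edgeR 4.0.16 (R 4.3.3) by its robust quasi-likelihood test over all 15 libraries, with 1 coefficient per group, filterByExpr and Benjamini-Hochberg adjustment over the 24052 of 42638 genes kept. Fold changes are extract 0 h over Ctrl. Differences within pairs use log2 CPM with a prior count of 2. SE was obtained from the fold change and the F statistic. The code was tested on simulated data.

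Same-numbered libraries had correlated deviations from their group means (0.259, 0.186 and 0.290, all above 0.1), so the replicate block is read as a pairing hinted at by the data. Alternatives used DESeq2 1.42.0, limma 3.58.1, sva 3.50.0, other scalings, filters and sample sets. Gene lists are described by counts and medians, with no set test. The members and lists were chosen with earlier results of these data known. Named genes were those with an adjusted p under 0.05 with or without the block, the 10 smallest p in each direction (at least 1 CPM, no overlap, same sign in 3 pairs), up to 3 per list by smallest p, and homeologs. Other genes named in the text, among them myh4.L, hoxc10.L, hoxd3.L, hoxc6.L, tnc.L, col1a1.L, hydin.S, ak7.S and fos.S, were chosen after their values were seen. Homeologs (.L and .S) are near copies whose reads the counting may have split unevenly. Symbols of 40077 genes matched RefSeq. Some single genes are not reported here.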

Additional observations from a re-analysis of the deposited data

How the results depend on the processing

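The count of 0 genes called stayed at 0 with DESeq2, limma-voom, RLE or upper-quartile factors, either filter, ribosomal RNA left out, homeologs summed, and without any 1 of the 6 libraries. DESeq2 had 218 genes higher and 765 lower at an unadjusted p under 0.05, and limma-voom 351 and 675. With the replicate block, which treats same-numbered libraries as pairs, 5 genes were called, and leaving out libraries or pairs gave 0 to 202 (154 without Ctrl library 3). Fitting only the 6 libraries gave 1 call, a higher gene, and 21 with the replicate block. DESeq2 with the replicate block gave 114, surrogate variables 6, and the authors' adjusted log2 values gave 550 among 28009 genes. The test on the authors' values did not allow for the correction already made in them. Its p-values can therefore be too small, and the 550 is not on a par with the other counts. The cause of the differing counts was not tested. Leaving out single libraries from the blocked fit was added after seeing the data. The 5 genes were lower under every alternative, but 0 of them were among the calls with surrogate variables or with only the 6 libraries, and hoxc9.L was not called with only the 6 libraries and the block (adjusted p = 0.0759 in edgeR). Of 3315 recomputed values of 115 genes, 3308 kept their sign. Most of these genes were chosen for a small p or after their values were seen. Few signs could therefore change, and the count is no measure of how stable genes in general are. The exceptions to the kept sign are homeologs near 0. For cdkn2c.S they were -0.06 with surrogate variables, -0.07 without Ctrl library 2, -0.15 with the block without pair 2 and -0.2 with the block without Ctrl library 2, and they ranged from -0.07 to 0.3 over the single libraries left out of the fit without the block. For ddx49.S they were 0.09 with homeologs summed, 0.06 with surrogate variables and 0.01 with the block without extract library 3. Of 1334 recomputed list medians 111 moved by over 1 SD of the pairs, and 104 changed sign, in 25 lists whose median was at most 0.29 from 0. With surrogate variables the muscle median was -1.81 and the Hox median -0.94. Genes at a few CPM rest on few counts, and 3 pools per group limit what can be called.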
